A study of Mus musculus with 20 samples.

Results

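The nuclear genes for the mitochondrial respiratory chain and the ATP synthase were examined in the mouse hippocampus. They were chosen by symbol, taking every gene whose name begins with Nduf, Sdha to Sdhd, Uqcr, Cox4 to Cox8 or Atp5, which also takes in assembly factors named Ndufaf and Sdhaf. The array listed 94 such genes, of which 89 reached an intensity of 100 in at least 2 of the 20 mice, among 9891 genes with a single symbol that passed the same limit. Those 89 genes comprised 34 of complex I, 4 of complex II, 8 of complex III, 14 of complex IV, 17 of the ATP synthase and 12 assembly factors, each taken from its probe set with the highest mean intensity. The 5 genes below the limit were Cox4i2, Cox7a1, Cox7b2, Ndufa4l2 and Ndufb4, with mean intensities from 17.4 to 50.6. Each of these 5 was read by 1 probe set. Just inside the limit were Cox6b2, with a mean of 75.0, and Cox7c, with a mean of 87.2. Cox7c had 1 probe set kept, of a type that may match other transcripts. Whether such low readings are those of the transcript or of the probe set was not tested, so they do not show that a gene is little expressed.

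Hippocampal RNA came from 20 male mice, 1 array per mouse and 4 mice per group. The groups were young wild-type mice aged 6 months (WT_Y), wild-type mice aged 24 months with unimpaired (WT_AU) or impaired (WT_AI) spatial memory in a Y-maze, and young (KO_Y, 6 months) and aged (KO_A, 24 months) mice homozygous for a targeted disruption of Hsd11b1. Hsd11b1 encodes 11β-HSD1, the enzyme that regenerates active glucocorticoid inside cells. All mice were of the C57BL/6J background, to which the disrupted allele had been bred as a congenic, and a mouse is named below by its group and number. WT_A joins the 8 mice of WT_AU and WT_AI, which the study divided by their memory performance. Values are normalised chip intensities, and the changes are differences of log2 intensity. As a check of the labels, Hsd11b1 read from 549.6 to 804.2 in the wild-type mice and from 39.5 to 65.2 in the Hsd11b1-/- mice. All 9 neuronal markers and all 6 markers of hippocampal excitatory neurones were above the limit. The 7 markers of choroid plexus, which lines the ventricle beside the hippocampus, varied widely within groups, and their summed intensity ran from 1318 to 24413 over the mice. Whole tissue was measured, so fewer cells of a type and less RNA per cell cannot be told apart.

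The respiratory chain passes electrons from NADH through complex I, or from succinate through complex II, to ubiquinone and on through complex III and cytochrome c to complex IV, which reduces oxygen. Complexes I, III and IV pump protons across the inner mitochondrial membrane, and the ATP synthase uses the gradient to make ATP, on which neurones depend for ion pumping and synaptic transmission. The chain's catalytic core in complexes I, III and IV is in part encoded by mitochondrial DNA, whereas all subunits treated here are nuclear. Several complex IV subunits exist as isoforms with separate genes, 1 found in most tissues and others typical of heart and skeletal muscle, lung or testis.

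Nuclear respiratory genes are known for promoters bound by NRF1, GABP (also called NRF2), YY1 and oestrogen-related receptors. RefSeq promoters (GRCm38.p6, 250 bases before to 50 bases after the start) were available for 75 of the 89 genes, as 80 promoters. GCGCANGCG, searched for NRF1, was found on either strand in 27.5% of these promoters and in 6.25% of all 32851 promoters of the same length. CCGGAAG, searched for GABP, was found in 27.5% against 8.86%, AAGATGGC for YY1 in 12.5% against 2.75%, and AAGGTCA for oestrogen-related receptors in 8.75% against 4.72%. At least 1 of the 4 occurred in 57.5% of the promoters of these genes and in 20.2% of all promoters. The letters of GABP and YY1 can overlap by AAG. The promoter of Sdhd, a membrane anchor of complex II, is shown as an example with matches to 3 of the 4. Those of Atp5k and Atp5l also held 3. Beside it are the promoters of 2 isoform pairs of complex IV whose members differed in their spread over the mice. Cox8a and Cox6b1 are the isoforms of most tissues, Cox8b is that of heart and skeletal muscle, and Cox6b2 is that of testis. All 5 lie on the minus strand and are written 5′ to 3′, with matches on either strand in capitals.
Sdhd, chr9:50603800-50604099: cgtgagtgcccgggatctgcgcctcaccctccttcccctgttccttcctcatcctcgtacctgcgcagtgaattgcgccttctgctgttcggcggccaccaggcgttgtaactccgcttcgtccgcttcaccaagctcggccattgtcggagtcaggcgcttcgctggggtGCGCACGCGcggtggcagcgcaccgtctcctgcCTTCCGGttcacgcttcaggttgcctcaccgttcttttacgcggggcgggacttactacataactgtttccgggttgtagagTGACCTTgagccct
Cox8a, chr19:7217567-7217866: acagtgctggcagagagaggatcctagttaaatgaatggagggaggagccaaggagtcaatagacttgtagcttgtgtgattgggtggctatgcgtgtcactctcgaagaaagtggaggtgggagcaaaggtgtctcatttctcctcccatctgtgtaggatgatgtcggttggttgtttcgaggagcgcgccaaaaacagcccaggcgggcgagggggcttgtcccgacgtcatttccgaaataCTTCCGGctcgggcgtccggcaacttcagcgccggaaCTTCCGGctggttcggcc
Cox8b, chr7:140900397-140900696: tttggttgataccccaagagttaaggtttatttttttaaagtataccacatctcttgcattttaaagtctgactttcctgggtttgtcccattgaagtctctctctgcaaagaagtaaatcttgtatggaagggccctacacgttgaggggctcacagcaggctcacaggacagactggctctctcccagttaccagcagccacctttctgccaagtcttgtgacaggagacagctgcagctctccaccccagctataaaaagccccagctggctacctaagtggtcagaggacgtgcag
Cox6b1, chr7:30626065-30626364: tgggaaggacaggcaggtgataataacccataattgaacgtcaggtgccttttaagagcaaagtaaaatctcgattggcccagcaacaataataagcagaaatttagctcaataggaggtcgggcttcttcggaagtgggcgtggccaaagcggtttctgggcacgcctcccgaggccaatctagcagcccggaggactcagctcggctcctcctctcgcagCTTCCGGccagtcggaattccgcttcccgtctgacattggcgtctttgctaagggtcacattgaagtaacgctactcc
Cox6b2, chr7:4753045-4753344: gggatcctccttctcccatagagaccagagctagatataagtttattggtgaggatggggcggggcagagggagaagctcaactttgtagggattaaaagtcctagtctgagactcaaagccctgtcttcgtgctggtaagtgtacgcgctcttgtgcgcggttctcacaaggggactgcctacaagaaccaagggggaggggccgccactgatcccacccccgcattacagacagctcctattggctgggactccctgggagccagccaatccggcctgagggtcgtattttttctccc
The Cox8a window held the GABP letters at 2 places and the Cox6b1 window at 1, while the windows of Cox8b and Cox6b2 held none of the 4 motifs. A match of letters is a description of the window and not a bound site.

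Across the 5 groups the subunit genes changed little. Of the 89 genes, 1 was called in any comparison (limma, Benjamini-Hochberg adjusted p under 0.05 over all 16995 probe sets), namely Sdhc, which was higher in KO_A than in KO_Y. The median gene varied 1.24-fold from its lowest to its highest mouse, and in 82 of 89 genes the highest mouse was under 1.5 times the lowest. Cox8b and Cox6b2 were the only genes in which it was 2 times the lowest or more. The median within-group SD, as limma moderates it toward a value common to all probe sets, was 0.085 log2 for these genes and 0.11 for all probe sets tested. Most of these genes read at high intensities, and they were not compared with probe sets of like intensity. The number of arrays limits the precision, and the median 95% interval of a gene reached 0.11 to 0.13 log2 to either side in the comparisons of groups.

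The age comparison in wild-type mice (WT_A against WT_Y) called none of the 89 genes, against 0.594% of all probe sets. At an unadjusted p under 0.05 there were 3 (7.1% of all probe sets). Rank products at p under 0.05, the method of the study, gave 4 calls (13% of all). Higher and lower are tested apart there, so 1 gene can count in both, here and in the shares. The 4 calls were of Cox6a2, Cox6b2 and Cox8b, and the readings of the last 2 may be background. Of the 89 genes, 36 lay above 0 (46.4% of all probe sets did), with a median log2 change of -0.018 against -0.0060 for all probe sets. The interval lay within a 1.5-fold change in either direction for 87 of the 89 genes and within 1.2-fold for 83. The exceptions to the wider bound were Cox6b2 and Cox8b in this and every other comparison.

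In the Hsd11b1-/- mice (KO_A against KO_Y) age gave the 1 called gene, where 2.41% of all probe sets were called and 2.22% were called as higher. A further 10 genes were below an unadjusted p of 0.05, making 11 (20.9% of all probe sets), and rank products gave 3 (16.1% of all). Of the 89 genes, 64 lay above 0 (56.4% of all probe sets), with a median of 0.032 against 0.020. The interval lay within 1.2-fold for 73 genes. The difference of the age effects between genotypes called 0 of 89 genes in limma (0.0471% of all probe sets), with 6 at an unadjusted p under 0.05 (10.5%) and a median of 0.051.

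**Figure D1:**
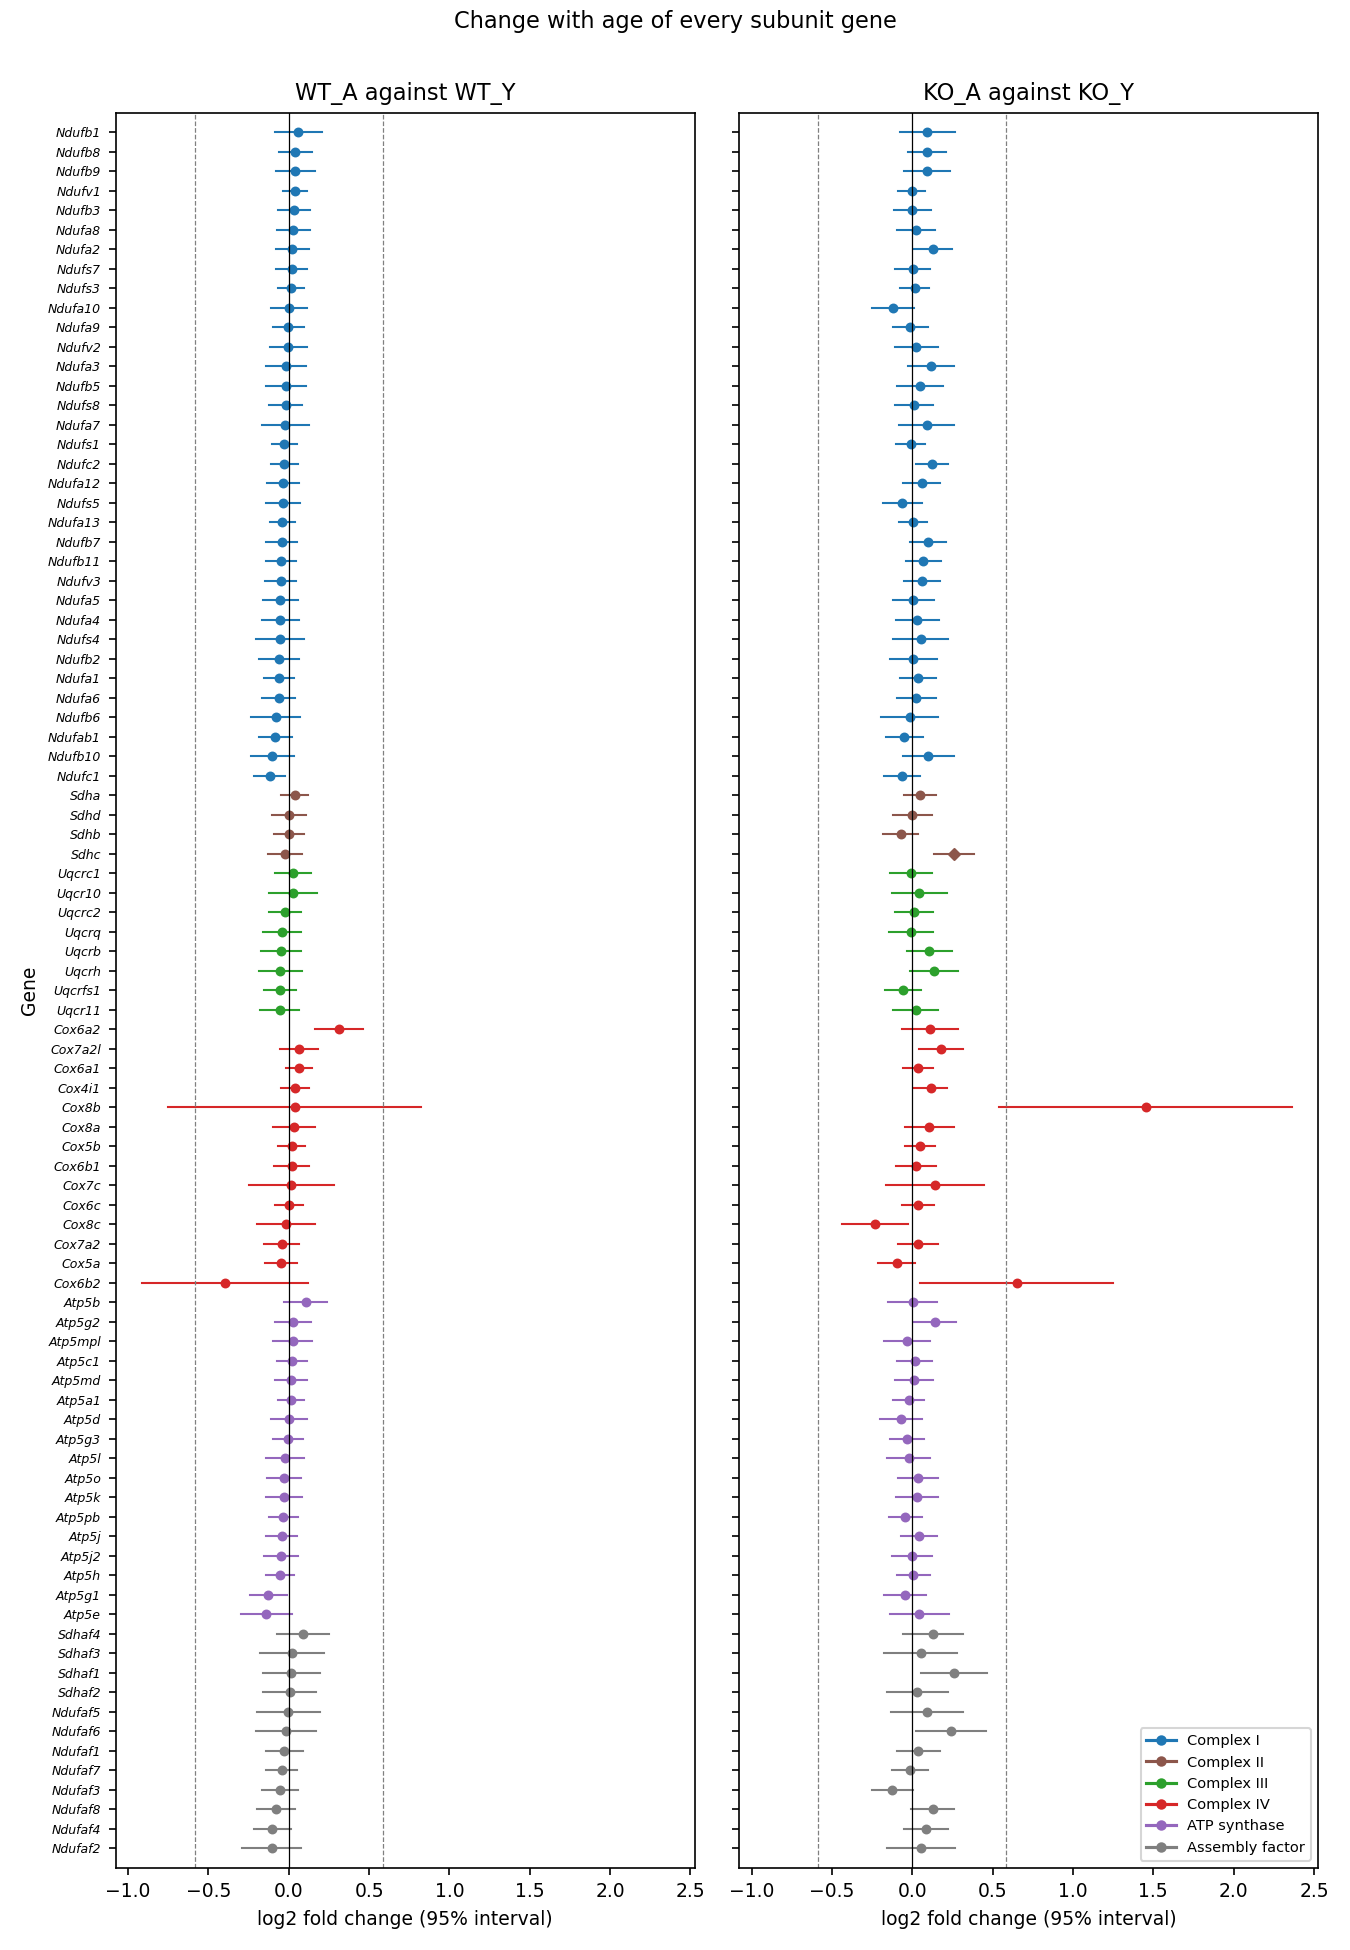
Change of each of the 89 genes with age, as log2 fold change (horizontal axis, points) with its 95% interval (lines), in wild-type mice (left) and Hsd11b1-/- mice (right), coloured by complex and ordered within a complex by the wild-type change. Dashed lines mark a 1.5-fold change. The diamond is Sdhc, the called gene, and only Cox6b2 and Cox8b, whose low readings may be background, have intervals that cross a dashed line.

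Genotype and memory status gave no call. KO_Y against WT_Y called 0 of 89 genes in limma (0.129% of all probe sets), with 6 at an unadjusted p under 0.05 (3.71%) and 5 by rank products (10.2%). KO_A against WT_A called 0 (0.0294%), with 4 unadjusted (14.8%) and 5 by rank products (16%), and 71 of 89 genes lay above 0 where 60.1% of all probe sets did. WT_AI against WT_AU called 0 (0%), with 1 unadjusted (0.883%) and 4 calls by rank products (8.6%), of Atp5b, Cox6b2 and Cox8b. WT_AI against KO_A called 0 (0.0118%), with 3 unadjusted (10.7%) and 3 by rank products (13.2%). The comparisons of WT_AI and of WT_AU with WT_Y called 0 each (0.141% and 0.43%), with 2 unadjusted in each (4.87% and 6.06%). Rank products gave them 4 and 5 calls (10.6% and 11.3%). Those were of Cox6a2, Cox6b2 and Cox8b in both, and also of Atp5b in WT_AU. In the comparison of memory status the interval lay within 1.2-fold for 85 of 89 genes.

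Array weights, which count mice that stand apart for less, altered the calls in the Hsd11b1-/- mice. With them 15 of the 89 genes were called in KO_A against KO_Y (21.8% of all probe sets) and 7 in KO_A against WT_A (12.8%), all higher in KO_A. The lowest weights were 0.252 in WT_Y-374, 0.289 in KO_A-41 and 0.315 in KO_A-42. The aged Hsd11b1-/- mice differed among themselves, and over all 89 genes the mean log2 intensity minus that of all mice was -0.012 in KO_A-41, -0.083 in KO_A-42, 0.11 in KO_A-222 and 0.12 in KO_A-223. The other 16 mice lay between -0.060 and 0.063. The same pair was high for 46 cytosolic ribosomal protein genes, at 0.15 and 0.16 where the other mice lay between -0.11 and 0.067. The mean of 7 astrocyte markers was 0.40 in KO_A-222, 0.27 in KO_A-223, 0.25 in KO_A-42 and -0.027 in KO_A-41. Markers of other cells differed as well. The 6 markers of hippocampal excitatory neurones all lay below 0 in KO_A against KO_Y (median -0.25, none called), as did the 2 smooth muscle markers that passed the limit (median -0.89, 1 called lower). Of the 9 neuronal markers 3 lay above 0 in KO_A against KO_Y (median -0.027). The 6 excitatory markers all lay above 0 in KO_Y against WT_Y (median 0.20), and their median in KO_A against WT_A was -0.064. In KO_A against WT_A the 7 leptomeningeal markers all lay below 0 (median -0.67, none called). Without KO_A-222 and KO_A-223 the median change of the 89 genes was -0.044 in KO_A against KO_Y and -0.029 in KO_A against WT_A, and no gene was called. The part of these differences between mice and of these markers in the changes was not tested.

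**Figure D2:**
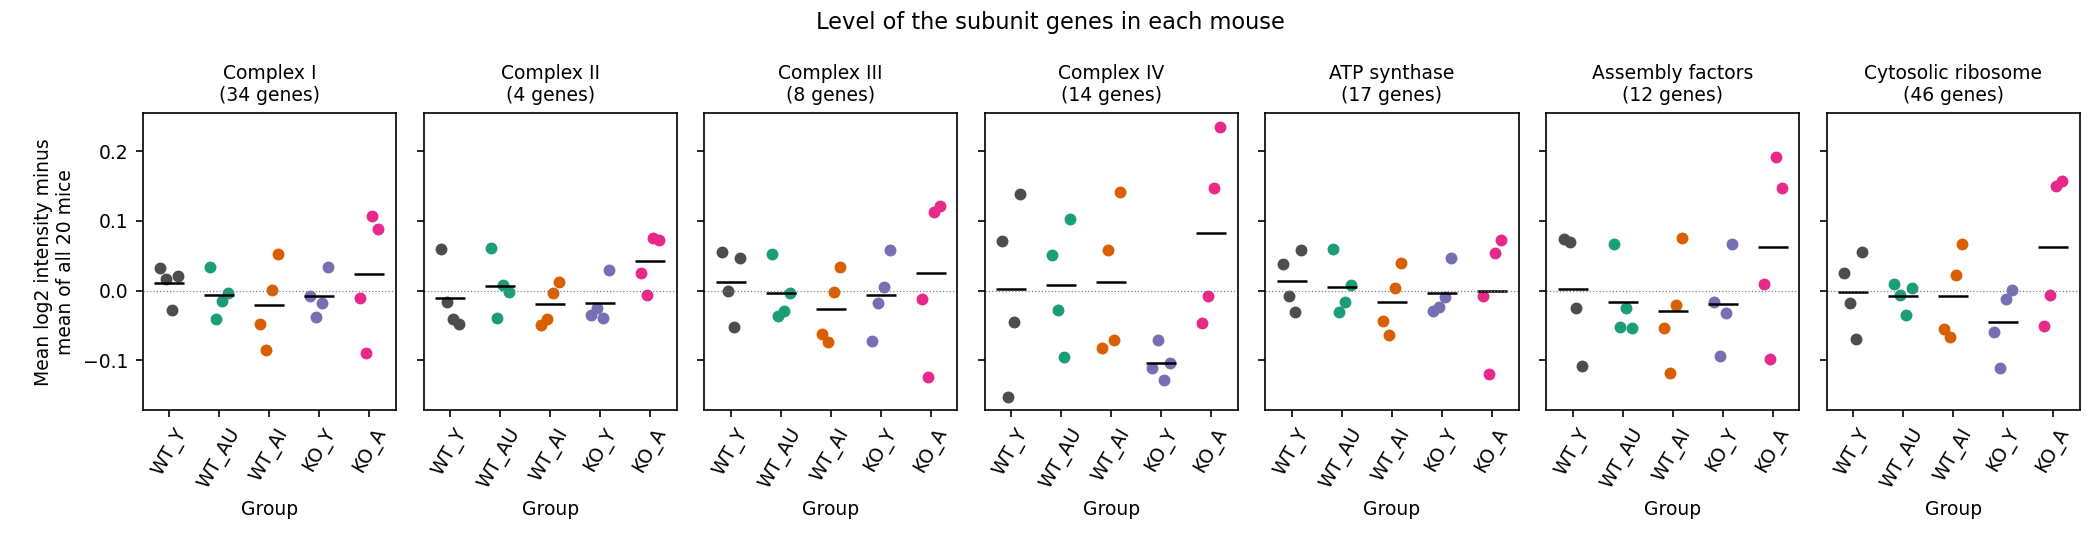
Mean log2 intensity of the genes of each complex in each mouse, minus the mean of all 20 mice (vertical axis), by group, with points for mice and lines for group means. KO_A-222 and KO_A-223 are the 2 highest mice of their group in every panel, including the last, which shows the cytosolic ribosomal protein genes.

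Complex I, the NADH dehydrogenase, gave no call in its 34 genes. In WT_A against WT_Y they had a median of -0.027, with 10 above 0. In KO_A against KO_Y the median was 0.025 with 26 above 0, and in KO_A against WT_A 0.036 with 27 above 0. In all 9 comparisons every interval lay within a 1.5-fold change. Ndufs1, which carries iron-sulphur clusters of the electron path, had a mean intensity of 1052 ± 37.5 (SD, n = 4) in WT_Y, 1039 ± 35.7 in WT_AU, 1026 ± 37.1 in WT_AI, 1031 ± 17.2 in KO_Y and 1023 ± 11.3 in KO_A. Ndufv1, the NADH-binding subunit, stood at 2282 ± 54.8 in WT_Y and between 2322 and 2368 in the other groups.

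The accessory subunit Ndufc1 had the smallest p of complex I in the wild-type age comparison. It read 3360, 3384, 3580 and 3470 in WT_Y, 3503, 3009.5, 3095 and 3183 in WT_AU, and 3102, 2954, 3170.5 and 3439 in WT_AI. All but 1 of the aged mice lay below the WT_Y mean, and WT_AU-126 and WT_AI-51 overlapped the young mice. The change was -0.12 (95% interval -0.21 to -0.022), with an unadjusted p of 0.0190 in limma, an adjusted p of 0.508 and a two-sided exact permutation p of 0.0364. A second probe set of Ndufc1 gave -0.055 (unadjusted p 0.308 in limma). The neighbouring accessory subunit Ndufc2 read 4855, 4802, 5028 and 4920 in KO_Y, and 5020.5, 5209, 5601 and 5512 in KO_A. KO_A-41 overlapped the young mice, and the change of 0.12 had an adjusted p of 0.156 in limma. In WT_Y the same gene read 5183, 5230, 5406 and 5442, all above the KO_Y mice, a genotype change of -0.12 with an adjusted p above 0.99 in limma. This probe set is of a type that may match other transcripts, and the 2 other probe sets of Ndufc2 gave genotype changes of -0.034 and -0.0045 and changes with age in the Hsd11b1-/- mice of 0.0077 and -0.0099. The largest rise of complex I with age in the Hsd11b1-/- mice was that of the accessory subunit Ndufa2 (0.13, adjusted p 0.204 in limma) and the largest fall that of another, Ndufa10 (-0.12, adjusted p 0.289).

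Complex II, succinate dehydrogenase, joins the citric acid cycle to the chain. It has 4 subunits, the flavoprotein Sdha, the iron-sulphur protein Sdhb and the membrane anchors Sdhc and Sdhd. Sdhc read 432, 428, 411.5 and 416 in KO_Y and 454, 512.5, 532 and 526 in KO_A. Every KO_A mouse lay above every KO_Y mouse. The change was 0.26 (95% interval 0.14 to 0.38), higher in 4 of 4 mice, with an adjusted p of 0.0267 in limma and an exact permutation p of 0.0286, the smallest possible here. In the wild-type mice Sdhc read 478, 418, 483 and 424 in WT_Y, 441, 443, 451 and 435 in WT_AU, and 420.5, 436, 457 and 458 in WT_AI. The 8 aged mice lay between the lowest and the highest young mouse, and the age change was -0.024 (adjusted p 0.992 in limma). KO_A lay 0.19 above WT_A (95% interval 0.086 to 0.30), with 3 of 4 mice above all aged wild-type mice, an adjusted p of 0.211 in limma and an exact permutation p of 0.00606. The difference of the age effects between genotypes was 0.28 (0.12 to 0.45) with an adjusted p of 0.380 in limma. A difference between genotypes was thus not called. Sdhc lies on chromosome 1, as does Hsd11b1, and 6 of the 89 genes lie on that chromosome. The part of sequence carried along with the disrupted allele in the comparisons of Sdhc between genotypes was not tested.

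The call of Sdhc rested on a small margin. Over 18 alternatives its change in KO_A against KO_Y stayed above 0, from 0.17 to 0.31, and its adjusted p in limma ran from 0.00201 to 0.432. It was lost without KO_A-222 (0.24, adjusted p 0.107), without KO_A-223 (0.24, 0.0929), without KO_Y-575, KO_Y-578 or KO_Y-580 (0.0562 to 0.0905), and in a fit of KO_Y and KO_A alone (0.179). Without KO_A-41, the lowest KO_A mouse for this gene, the changes against KO_Y, WT_A and WT_AI and the difference of the age effects were all called (adjusted p 0.00201, 0.0110, 0.0315 and 0.0268), where 15.5%, 8.31%, 2.94% and 2.47% of all probe sets were called. A second probe set of Sdhc, whose type may match other transcripts, had a mean of 342 and a change of 0.084 in KO_A against KO_Y (adjusted p 0.553 in limma).

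None of the other 3 subunits of complex II was called. Sdha had a mean of 2655 ± 71.8 (SD, n = 4) in KO_Y and 2747 ± 83.9 in KO_A, a change of 0.05. Sdhb read 2275, 2254, 2249 and 2421 in KO_Y and 2279, 2017, 2286 and 2172 in KO_A, a change of -0.073 with an adjusted p of 0.432 in limma. Sdhd read from 1193 to 1326 in KO_Y and from 1159 to 1368 in KO_A, and the groups overlapped throughout. The median correlation between pairs of complex II genes over the 20 mice, with group means subtracted, was 0.14, where it was 0.51 in complex I, 0.46 in complex III, 0.28 in complex IV, 0.47 in the ATP synthase and 0.52 among assembly factors. These correlations share the arrays and their normalisation.

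**Figure D3:**
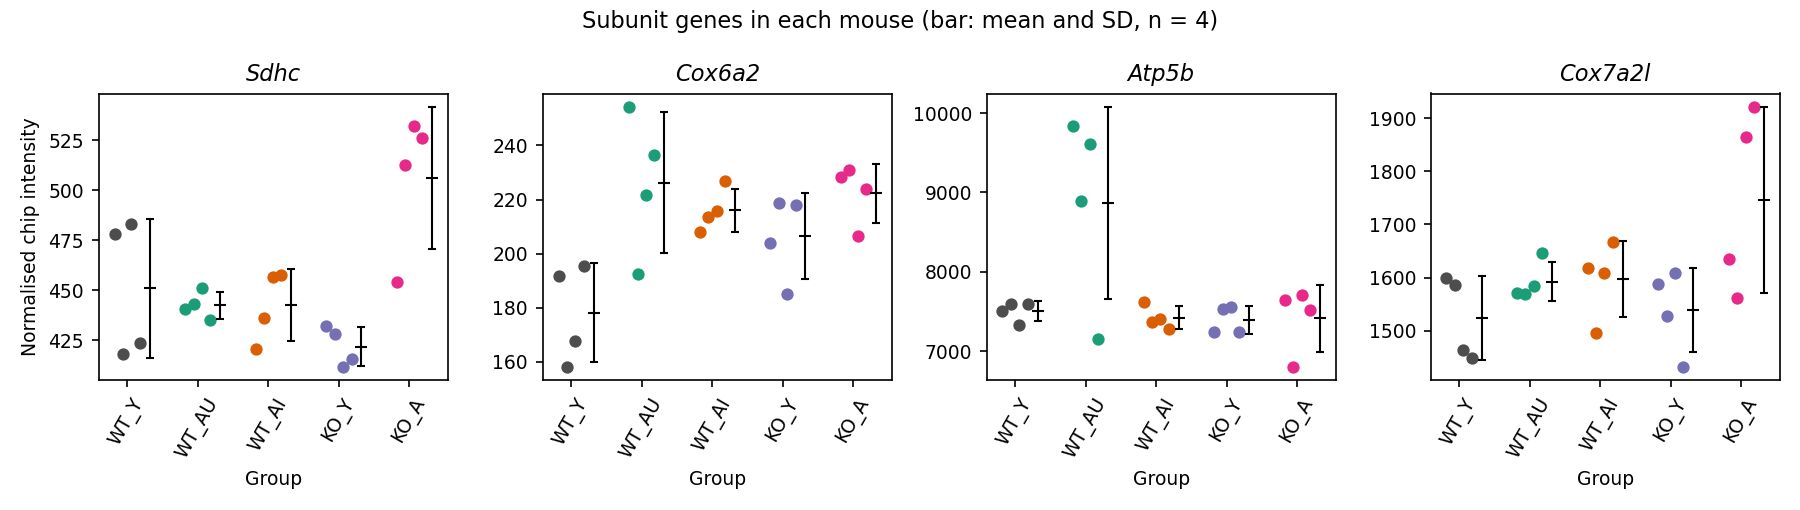
Normalised chip intensity (vertical axis, not starting at 0) of Sdhc, Cox6a2, Atp5b and Cox7a2l in each mouse by group, with the mean and SD of 4 mice beside the points. All KO_A mice lie above the KO_Y mice for Sdhc, and 3 of 4 WT_AU mice lie above every other mouse for Atp5b.

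Complex III, which passes electrons from ubiquinol to cytochrome c, gave no call in its 8 genes. The median change was -0.044 in WT_A against WT_Y, with 2 above 0, and 0.017 in KO_A against KO_Y, with 5 above 0. All 8 lay above 0 in KO_A against WT_A, with a median of 0.031 and changes from 0.00056 to 0.11. The core subunit Uqcrc1 had a mean of 2344 ± 168 (SD, n = 4) in WT_Y and 2405 ± 53.7 in WT_AI, and the Rieske iron-sulphur protein Uqcrfs1 had 1672 ± 72.5 in WT_Y and 1607 ± 50.4 in WT_AI. The hinge protein Uqcrh, which aids the docking of cytochrome c, changed most in KO_A against KO_Y, by 0.13 (adjusted p 0.294 in limma). Cyc1, the cytochrome c1 gene that the symbols leave out, changed by -0.042 and 0.057 with age in the wild-type and the Hsd11b1-/- mice (adjusted p 0.985 and 0.670).

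Complex IV, cytochrome c oxidase, held the widest range of changes. Its 14 genes had a median of 0.018 in WT_A against WT_Y with 10 above 0, and of 0.076 in KO_A against KO_Y with 12 above 0. The isoforms of most tissues were not called in any comparison, with intervals within a 1.5-fold change. Cox4i1 had a mean of 8587 ± 417 (SD, n = 4) in WT_Y, 8869 ± 152 in WT_AU, 8776 ± 213 in WT_AI, 8384 ± 360 in KO_Y and 9084 ± 472 in KO_A. Cox6a1 had 14516 ± 222.7 in WT_Y and 15158 ± 484, 15201 ± 614, 14930 ± 327 and 15312 ± 689 in WT_AU, WT_AI, KO_Y and KO_A. Cox7a2 lay between 6961 and 7188 in the group means. Ndufa4, now assigned to complex IV but by its symbol among the 34 complex I genes here, lay between 5217 and 5467.

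Cox6a2, the heart and skeletal muscle isoform of subunit VIa, was the gene of smallest p in the wild-type age comparison. It read 192, 158, 168 and 195.5 in WT_Y, 254, 192.5, 221.7 and 236 in WT_AU, and 208, 214, 216 and 227 in WT_AI. All 8 aged mice lay above the WT_Y mean and 7 of them above every WT_Y mouse, the exception being WT_AU-23. The change was 0.31 (95% interval 0.16 to 0.46), with an adjusted p of 0.0583 in limma and an exact permutation p of 0.00404. It was 0.34 in WT_AU (adjusted p 0.0947) and 0.28 in WT_AI (0.378) against WT_Y. In the Hsd11b1-/- mice Cox6a2 read 204, 219, 185 and 218 in KO_Y and 228, 231, 207 and 224 in KO_A, and these groups overlapped (0.11, adjusted p 0.467). The young groups differed by 0.22 with an adjusted p above 0.99. Of 21 alternatives 15 left the wild-type age change uncalled, with adjusted p from 0.0166 to 0.286 over all of them. The 6 that called it included the fits without WT_Y-374 (0.36, adjusted p 0.0484) or WT_AU-23 (0.35, 0.0180) and with array weights (0.34, 0.0166). Of 9 striated muscle markers 1 passed the limit of intensity, and its range was 175 to 235. The part of muscle tissue was not tested.

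Cox8b and Cox6b2, the heart and skeletal muscle isoform of subunit VIII and the testis isoform of VIb, varied most between mice. Cox8b read 149, 45.9, 125 and 152 in WT_Y, 121, 107.5, 59.4 and 176 in WT_AU, 71.5, 174, 60.2 and 203.5 in WT_AI, 55.0, 62.3, 45.3 and 56.3 in KO_Y, and 80.1, 146, 210.2 and 199 in KO_A. The wild-type groups overlapped throughout, while every KO_A mouse lay above every KO_Y mouse. This comparison was not called (adjusted p 0.0800 in limma). Cox6b2 read 48.3, 72.0, 38.5 and 62.3 in KO_Y and 48.8, 76.7, 115 and 117 in KO_A, and 109, 54.3, 96.8 and 108 in WT_Y. It was not called in any comparison, and it reached 100 in 4 of the 20 arrays, from WT_Y and KO_A. The KO_Y values of both genes lay below 100, at about the intensities that the disrupted Hsd11b1 gave in the Hsd11b1-/- mice. The table holds no detection calls, so these readings may be background and no fold is given for either gene.

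Both genes moved with the choroid plexus markers. The slope of log2 intensity on the mean of the 7 markers, within groups, was 0.45 for Cox8b (SE 0.057, adjusted p 7.74e-05 in limma) and 0.29 for Cox6b2 (SE 0.041, adjusted p 0.000254). These were the 2 genes of 89 with a called slope, both above 0, although the lower readings of both may be background, where 1.6% of all probe sets were called and 1.58% were called above 0. In the 7 mice whose marker mean lay below that of all mice Cox8b read from 45.3 to 80.1 and Cox6b2 from 38.5 to 62.3. In the other 13 mice they read from 55.0 to 210.2 and from 48.3 to 117. The slopes of the isoforms of most tissues were not called. The same 2 sets of mice read 4332 to 4773 against 4207 to 5539 for Cox8a and 6682 to 7304 against 6290 to 7582 for Cox6b1. The median change of the markers was 1.15 in KO_A against KO_Y and -1.34 in WT_A against WT_Y, with none of the 7 called. With the marker mean as a covariate, chosen after seeing the data, the change of Sdhc in KO_A against KO_Y was 0.23 with an adjusted p of 0.0597 in limma, and that of Cox6a2 in WT_A against WT_Y 0.35 (0.0265). In that fit Cox8b was called as higher in KO_A than in KO_Y (adjusted p 0.0373 in limma), where 1.09% of all probe sets were called. Its KO_Y readings may be background, and the part of choroid plexus in this change was not tested.

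**Figure D4:**
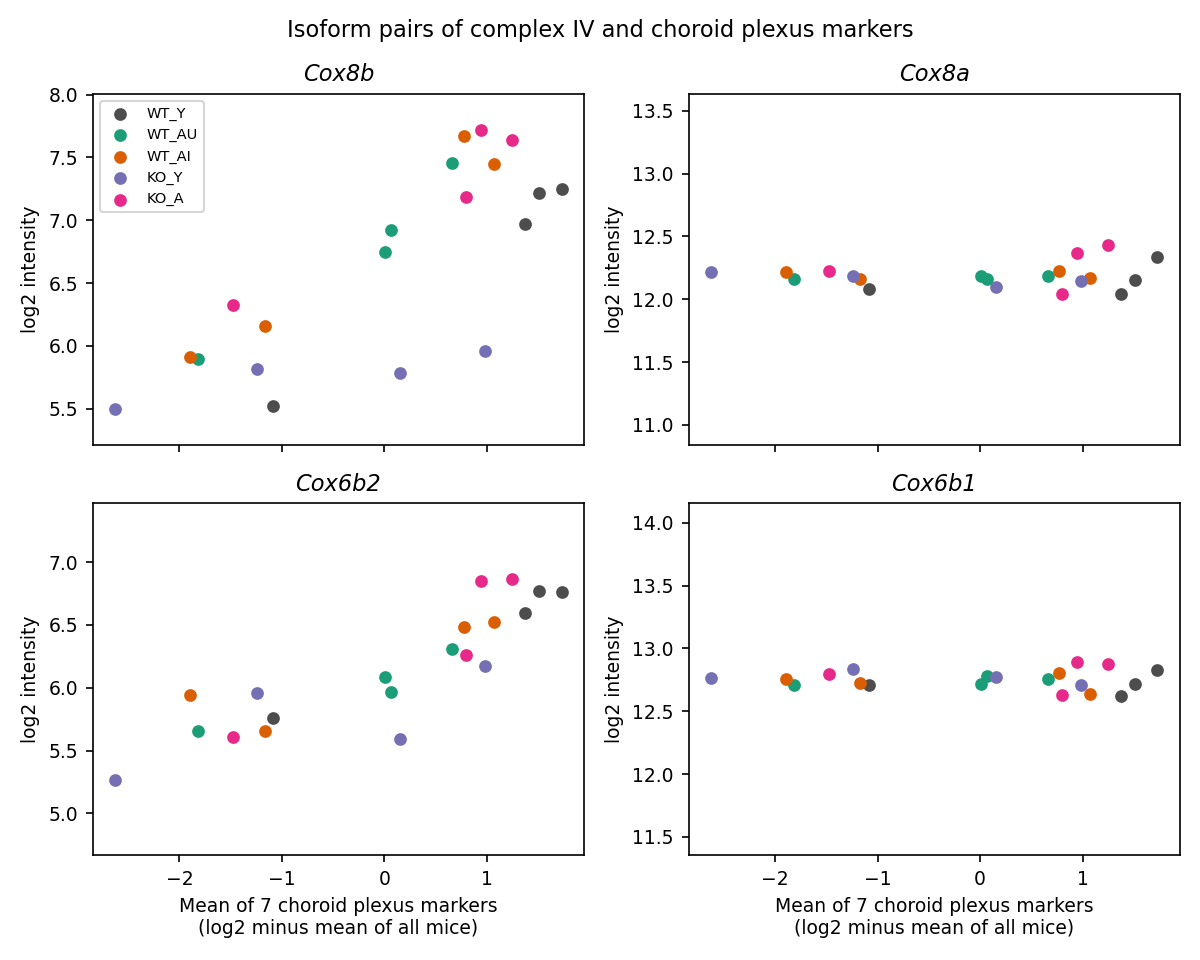
Log2 intensity (vertical axes, each spanning the same log2 range) of Cox8b, Cox8a, Cox6b2 and Cox6b1 against the mean of 7 choroid plexus markers (horizontal axis, log2 minus the mean of all mice), with 1 point per mouse coloured by group. Cox8b and Cox6b2 rise with the marker mean, with slopes of 0.45 and 0.29, whereas Cox8a and Cox6b1 span 1.32-fold and 1.21-fold over all mice.

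Cox7a2l, which encodes a protein linked to supercomplexes of complexes III and IV, read 1588, 1528, 1609 and 1431 in KO_Y and 1634, 1561, 1864 and 1922 in KO_A. KO_A-222 and KO_A-223 were the highest of all mice and KO_A-42 overlapped KO_Y. The change of 0.18 had an adjusted p of 0.136 in limma and an exact permutation p of 0.114. Its other probe sets changed by 0.16 and 0.22 (adjusted p 0.255 and 0.141). Cox8c, a testis isoform of subunit VIII, read from 163 to 200 in KO_Y and from 137.5 to 176 in KO_A, with overlap and a change of -0.23 (adjusted p 0.187).

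The ATP synthase, with a catalytic F1 head and a proton-conducting Fo part, gave no call in its 17 genes. Their median change was -0.022 in WT_A against WT_Y with 7 above 0, 0.0030 in KO_A against KO_Y with 9 above 0, and 0.018 in KO_A against WT_A with 11 above 0. Atp5b, the catalytic beta subunit of F1, read 9834, 8888, 9604 and 7159 in WT_AU and between 6799 and 7713 in the other 16 mice. The high values in WT_AU were those of WT_AU-126, WT_AU-23 and WT_AU-26, while WT_AU-57 lay within the range of the other groups. WT_AI lay 0.25 below WT_AU (interval -0.40 to -0.093 for WT_AI minus WT_AU), with an unadjusted p of 0.00337 in limma, an adjusted p above 0.99 and an exact permutation p of 0.143. WT_AU against WT_Y gave 0.23 (adjusted p 0.383), and without WT_AU-57 it was called (0.33, adjusted p 0.00598). Atp5a1, the alpha subunit that alternates with beta in the F1 head, did not share this, with 5598 ± 196 (SD, n = 4) in WT_AU and 5461 to 5542 in the other group means.

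Subunit c, the ring of Fo, is encoded by Atp5g1, Atp5g2 and Atp5g3, which give the same mature protein. Atp5g1 read 2357, 2058, 2344 and 2217 in WT_Y, from 2027 to 2106 in WT_AU and from 1924 to 2218 in WT_AI. All 8 aged mice lay below the WT_Y mean, but the groups overlapped, and the change of -0.13 (interval -0.24 to -0.012) had an adjusted p of 0.612 in limma and an exact permutation p of 0.0182. Atp5g2 had group means from 1287 in KO_Y to 1421 in KO_A and Atp5g3 from 5677 in WT_AI to 5941 in KO_Y, without a call. Atp5e, the epsilon subunit, changed by -0.14 with age in the wild-type mice (adjusted p 0.791).

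The 12 assembly factors, which help to build complexes I and II without remaining in them, gave no call. Their median was -0.021 in WT_A against WT_Y with 4 above 0, 0.069 in KO_A against KO_Y with 10 above 0, and 0.064 in KO_A against WT_A with 11 above 0. Sdhaf1, which aids the insertion of iron-sulphur clusters into Sdhb, read 217, 191, 210.2 and 225 in KO_Y and 213, 225, 294 and 287 in KO_A. The values of KO_A-222 and KO_A-223 exceeded those of all other mice and the remaining pair overlapped KO_Y, with a change of 0.26 (adjusted p 0.144 in limma). The complex I factor Ndufaf6 read 192 and 182 in KO_A-222 and KO_A-223 and from 120.5 to 159 in the other 18 mice. Its change against WT_A was 0.20 (adjusted p 0.306), and it was -0.032 without those 2 mice. A probe set of Sdhaf2, an assembly factor of complex II, other than that of the highest mean was called in KO_A against KO_Y, with 241, 212, 264 and 276 in KO_A and 186 to 211 in KO_Y.

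Other genes of mitochondrial energy supply were described from lists of known members. Of 31 assembly factors with other names, 11 lay above 0 in WT_A against WT_Y (median -0.023), and 24 in KO_A against KO_Y (0.064), with none called. Their smallest p values with age in the Hsd11b1-/- mice were those of Cox17, a copper chaperone for complex IV (0.18, adjusted p 0.0687 in limma), and Coa5 (0.24, 0.0752). Of 16 genes of the citric acid cycle and pyruvate dehydrogenase, 3 and 5 lay above 0 in these comparisons (medians -0.028 and -0.0097). Among them Suclg2, the GTP-forming subunit of succinyl-CoA ligase, was called as higher in KO_A than in KO_Y (0.60, adjusted p 0.0319 in limma). The share of all probe sets called as higher there was 2.22%. Its change under the alternatives is not given here, and without KO_A-222 and KO_A-223 only 0.0471% of all probe sets were called.

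Of 11 electron and nucleotide carriers, 2 lay above 0 with age in the wild-type and 7 in the Hsd11b1-/- mice (medians -0.059 and 0.027), without a call. Nnt, the transhydrogenase that links NADH to NADPH, gave -0.43 in WT_A against WT_Y (adjusted p 0.162 in limma) and 0.42 in KO_A against WT_A (0.223). Of 13 glycolytic genes, 11 and 5 lay above 0 (medians 0.029 and -0.011), again without a call. Among 15 regulators of mitochondrial biogenesis 6 and 9 lay above 0 (medians -0.0095 and 0.059). The mitochondrial deacetylase Sirt3 had the smallest p, in KO_A against KO_Y (0.27, adjusted p 0.0530). Of 76 mitochondrial ribosomal protein genes, 20 lay above 0 with age in the wild-type mice and 56 in the Hsd11b1-/- mice (medians -0.027 and 0.051), and of 46 cytosolic ones 27 and 44 (0.0061 and 0.10). None of the ribosomal genes was called. By contrast, of 9 microglial markers 6 were called as higher with age in the wild-type and 8 in the Hsd11b1-/- mice, with medians of 0.59 and 0.69. Of all probe sets 0.53% and 2.22% were called as higher. The study had reported some of these markers, among them Aif1, C1qb and Tyrobp, as increased with age on the same arrays. They are therefore not an independent check.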

How the data were processed

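Affymetrix mouse genome arrays measured the hippocampal RNA of 20 mice. The authors applied the robust multichip average to all arrays (the submitters' processing notes name affy and R 2.8.0), and the deposited table holds linear intensities of 45037 probe sets, with array medians from 39.4 to 41.3. Normalisation gives every array the same distribution of intensities, so a change shared by all transcripts would not be seen. Intensities were turned to log2 here, and the 16995 probe sets of at least 100 in at least 2 arrays were fitted over the 5 groups with limma 3.58.1 in R 4.3.3. P values were two-sided and adjusted over all of them in each of 9 comparisons, called under 0.05. Exact permutation tests were run for single genes, with smallest p values of 0.0286 (4 mice against 4) and 0.00202 (8 against 4). Rank products used 50 permutations, and their higher and lower calls were added, so a gene called in both directions counts in both. Of the 89 genes 44 had several probe sets, and the chosen probe set was of a type that may match other transcripts in 19.

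The members, lists and named genes were chosen with earlier results of these data known. The rule for named genes took the called genes or else the 4 of smallest p, the largest rise and fall per complex, isoform pairs, and the called genes or 2 of smallest p of each list, and not all are printed. Alternatives tried were testing every probe set, a stricter filter (4 arrays), the groups compared alone, array weights, a trended prior, centring of arrays, averaging a gene's probe sets, adjusted p under 0.1, rank products, and leaving out each mouse. A choroid plexus covariate and fits without the 4 arrays of highest Alb or without KO_A-222 and KO_A-223 were chosen after seeing the data. Ratios of 3′ to 5′ control probe sets, planned as a check of RNA quality, were not computed because no control probe sets were in the table. Scripts were tested on simulated data. Tables were made with pandas 2.3.3 and numpy 2.4.6 in Python 3.11.15, and plots with matplotlib 3.10.9. The behavioural, qPCR and in situ hybridisation data were not analysed here.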

Additional observations from a re-analysis of the deposited data

Results flagged for a closer look

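Dixon's test of the gap to the nearest mouse was run 160 times on groups of 4 mice, over 26 genes. Some genes thus gave more than 1 test per group. In 3 of these tests the highest or the lowest mouse stood far from the others of its group. Chance sets apart about 1 in 20 such tests, and these tests share mice. Cox7a2, a subunit of complex IV, read 7650.6 in WT_Y-374 and from 7021 to 7046 in the other WT_Y mice. Atp5g2, 1 of the genes for subunit c of the ATP synthase, read 1236.2 in WT_AI-14 and from 1354 to 1367 in the other WT_AI mice. Atp5g3, another of these genes, read 5407.4 in WT_AU-23 and from 5959 to 6016 in the other WT_AU mice.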

How the results depend on the processing

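Calls and median changes were recomputed under each alternative. For the number of the 89 genes called, WT_A against WT_Y gave 1, always Cox6a2, in several fits. They were those with array weights (1.55% of all probe sets), with the mean of probe sets and with the choroid plexus covariate (0.753%). The fit without the 4 arrays of highest Alb (0.324%) was another. An adjusted p under 0.1 gave 1 (0.812%), and rank products gave 4 calls (13%), of Cox6a2, Cox6b2 and Cox8b. Leaving out single mice gave 0 to 1, the call appearing without WT_Y-374 (0.424%) or WT_AU-23 (0.465%). KO_A against KO_Y gave 0 with no filter (0.613% of all probe sets), with the groups alone and with the mean of probe sets. It also gave 0 without the 4 arrays of highest Alb (0.618%) and without KO_A-222 and KO_A-223 (0.0471%). With the choroid plexus covariate it gave 1 (1.09%), which was Cox8b and no longer Sdhc. It gave 2 at an adjusted p under 0.1 (6.31%), 3 with rank products (16.1%) and 15 with array weights (21.8%). Single mice left out gave 0 to 6, with 6 without KO_A-41 (15.5% of all probe sets) and 0 without KO_Y-575, KO_Y-578, KO_Y-580, KO_A-222 or KO_A-223. KO_Y against WT_Y gave 5 with rank products (10.2%). KO_A against WT_A gave 7 with array weights (12.8% of all probe sets) and 5 with rank products (16%). Leaving out single mice gave 0 to 2 there, with 2 (Sdhc and Sdhaf1) without KO_A-41 (8.31%). WT_AI against WT_AU gave 4 calls with rank products (8.6%), of Atp5b, Cox6b2 and Cox8b. WT_AI against KO_A gave 3 with array weights (6.73%), 3 with rank products (13.2%) and 0 to 1 without single mice, with 1 (Sdhc) without KO_A-41 (2.94%). WT_AI against WT_Y gave 4 calls with rank products (10.6%), of Cox6a2, Cox6b2 and Cox8b. WT_AU against WT_Y gave 1 with array weights (1.11%), with the choroid plexus covariate (0.541%) and at an adjusted p under 0.1 (0.653%). Rank products gave 5 calls there (11.3%), of Atp5b, Cox6a2, Cox6b2 and Cox8b. Without single mice it gave 0 to 1, with Cox6a2 called without WT_AU-23 (0.2%) and Atp5b without WT_AU-57 (0.271%). The difference of the age effects gave 6 with array weights (5.85%) and 0 to 1 without single mice, with 1 (Sdhc) without KO_A-41 (2.47%). Without KO_A-222 and KO_A-223 the median change was -0.044 in KO_A against KO_Y, -0.029 in KO_A against WT_A, 0.025 in WT_AI against KO_A and -0.036 for the difference of the age effects. In the same fit Ndufaf6 turned to -0.032 in KO_A against WT_A and to 0.010 in WT_AI against KO_A, and Ndufb10 turned to 0.00087 in WT_AI against KO_A. Of the 4 genes of smallest p in each comparison no other changed direction under any of these alternatives, and no other median moved by more than the spread between mice. The cause of these shifts was not tested.

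No paired analysis was possible because the replicate numbers are those of single mice and no groups share them. The labels give no batch, slide or scan date. With 4 arrays a group, changes under about 1.1-fold lay within the median interval.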
